A study of Drosophila melanogaster with 6 samples.

Results

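The mitochondrial ribosomal protein genes of the fly were followed in heart/nephrocyte complexes after 2 diets. Members were the genes whose only symbol in the array's annotation begins with mRpL, for the large subunit, or with mRpS, for the small subunit. Where a gene had several probe sets, the one brightest on average over the 6 arrays was taken. This gave 69 genes, 44 of the large and 25 of the small subunit, of 11982 genes with a single symbol. The mitochondrial ribosome translates the few messenger RNAs of the mitochondrial genome, which encode core subunits of the respiratory chain and of ATP synthase. Its ribosomal RNAs come from that same genome, while its proteins are encoded in the nucleus, made in the cytosol and imported. The small subunit reads the message, and the large subunit joins the amino acids and lets the new chain out through a tunnel to the inner membrane. Some of its proteins have counterparts in the bacterial ribosome, and others were added in mitochondria.

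One set of flies had eaten food supplemented with 0.1 M glucosamine, an amino sugar, and the other set food with 1.0 M sucrose, in both cases for 21 days. RNA of their heart tube together with the adjoining nephrocytes, which filter and take up proteins from the hemolymph, was hybridised to 6 single-channel Affymetrix arrays, 3 per diet. All flies were adult Drosophila melanogaster females, and the labels name no strain, genotype or age. They mention 30 females without tying that number to an array and do not state that replicates came from separate flies, so each p-value reflects the spread between these samples, and that spread may be technical. No arm on unsupplemented food was analysed here, and the sugars differed in concentration as well as in kind.

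The level in use is the deposited intensity of a probe set, on a linear scale. A difference is the mean of the glucosamine arrays minus that of the sucrose arrays in log2(intensity + 16). The added 16 makes the change of dim probe sets look smaller. Differences were tested with limma across 10022 genes and unnamed probe sets, with Benjamini-Hochberg adjustment over all of them and a threshold of 0.05. Upper quartiles of the 6 arrays ran from 222.3 to 236.9, and precision is limited by there being 3 arrays per diet. Of 8 nephrocyte markers on the array, 6 were lower and none higher after glucosamine, and their summed intensity was 6688 to 8417 in the glucosamine arrays and 23657 to 38527 in the sucrose arrays. Of 8 heart markers 1, Hand, was lower and 0 were higher, and the sums were 11795 to 15862 in the glucosamine and 16972 to 21682 in the sucrose arrays. Hand alone gave 8269, 9942 and 7976 of the glucosamine sums and 14560, 12941 and 16538 of the sucrose sums. Mlc2, the next brightest, had 3366, 4295 and 2145 in the glucosamine arrays, against 2102, 2174 and 2915 in the sucrose arrays, with overlap. The heart sums thus mostly follow Hand, and whether its signal came from heart cells or from nephrocytes was not tested. tin, Mhc and wupA were not listed under a single symbol. Of 6 ovary markers 1, aub, was lower. They summed to 358.0 to 533.8 in the glucosamine arrays and to 450.0 to 7737 in the sucrose arrays, of which osk alone gave 6355 in sucrose replicate 1, while vas stayed near the lowest intensities of the table, at 5.38 ± 0.020 in the glucosamine and 5.82 ± 0.088 in the sucrose arrays (SD, n = 3 each). Gut markers summed to 131.4 to 4956 in the glucosamine arrays, the highest in glucosamine replicate 3, and to 122.4 to 453.5 in the sucrose arrays. Fat body markers summed to 17671 to 23488 in the glucosamine and 21823 to 42414 in the sucrose arrays, and hemocyte markers to 5375 to 11160 in the glucosamine and 6301 to 9565 in the sucrose arrays. Of 4 trachea and epidermis markers 1, serp, was higher, by 0.85 ± 0.15 (SE; limma adjusted p = 0.0123), at 45.2, 56.3 and 43.4 in the glucosamine and 21.8, 20.6 and 16.3 in the sucrose arrays, and the 4 summed to 200.2 to 323.6 in the glucosamine and 140.8 to 261.5 in the sucrose arrays. The 4 markers of neurons and glia, of which 3 were tested and 0 called, summed to 288.8 to 549.8 in the glucosamine and 290.0 to 428.8 in the sucrose arrays. Because the samples are whole complexes, fewer cells of a type and less RNA per cell cannot be told apart in any of the differences below.

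Of the 69 genes, 17 were lower after glucosamine past the threshold and 0 were higher, where 8.64% of everything tested was called lower and 9.92% higher. All 69 passed the filter on low values, and their mean intensities ran from 93.3 to 3354. The other 52 did not pass. At an unadjusted limma p under 0.05, 33 members lay lower and 0 higher. The difference was negative for 63 members and positive for 6, against 53.6% negative over all that was tested. The median difference of the members was −0.40, with quartiles of −0.70 and −0.20, beside a median of −0.03 over all tested. In 36 members the 3 glucosamine arrays lay wholly below the 3 sucrose arrays and in 0 wholly above, where the shares over all tested were 20.0% and 18.9%. The 2 groups overlapped in 33 members. Among the 5450 tested genes and probe sets whose mean lay within the members' range, 12.8% were called lower, and the median difference was −0.02.

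In the large subunit 12 of 44 genes fell, and in the small subunit 5 of 25 did. Here and below, a gene that fell was called lower after glucosamine than after sucrose, and a gene that rose was called higher. With no arm on unsupplemented food, these words do not tell which diet moved a gene. The median differences were −0.41 for the large subunit, with a range from −1.24 to 0.63, and −0.30 for the small subunit, with a range from −0.92 to 0.04. The difference was negative for 40 large subunit and 23 small subunit genes, and the groups did not overlap for 24 and 12 of them. Numbers up to 36 in the large subunit and up to 21 in the small subunit are those of bacterial ribosomal proteins. These classes sort names only, and a higher number does not by itself mean that a protein lacks a bacterial counterpart. In the large subunit 9 of 27 genes with such a number and 3 of 17 with a higher one fell, with medians of −0.40 and −0.42. In the small subunit 3 of 13 and 2 of 12 fell, with medians of −0.41 and −0.30. Neither the difference between subunits nor that between the name classes was tested, since no p is given here for a list. Human counterparts of mRpS30 and mRpS18A sit in the large subunit despite their names, and counting both there left 12 of 46 and 5 of 23 with the same medians.

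**Figure D1:**
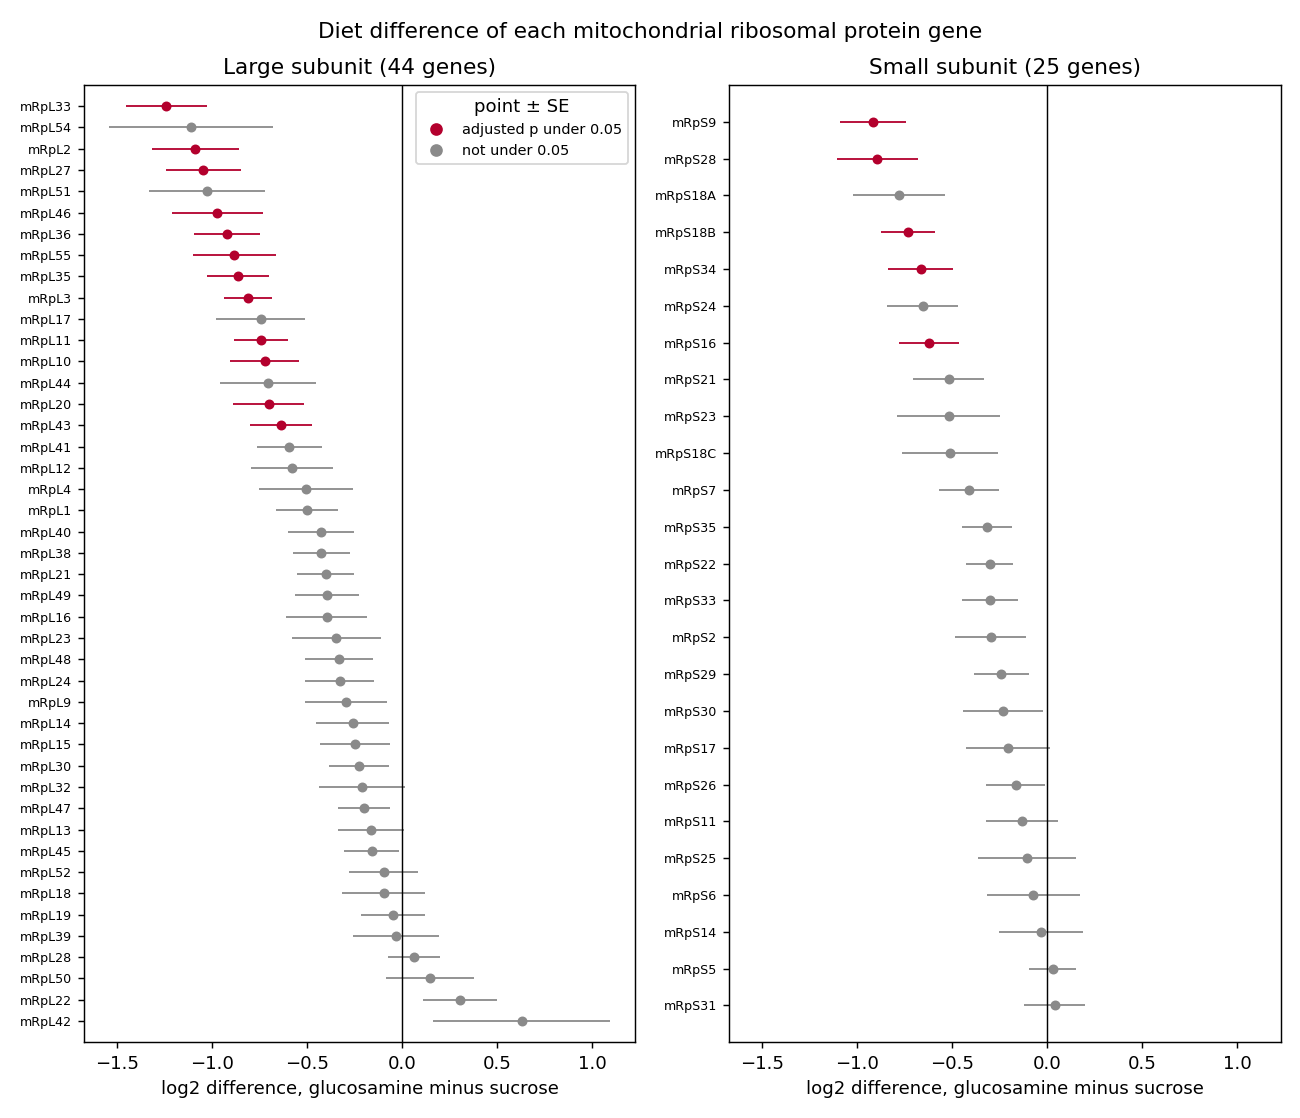
Each point is the log2 difference, glucosamine minus sucrose, of 1 gene of the large subunit (44 genes) or the small subunit (25 genes), and the bar is its SE from limma. Red points passed an adjusted p of 0.05. All 17 of these lie left of 0, and 6 grey points lie right of it.

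Array by array, the median level of each subunit was lower in every glucosamine array than in every sucrose array. The level of a subunit on an array was taken as the median, over its genes, of log2(intensity + 16) minus the gene's own mean over the 6 arrays. For the large subunit it was −0.34, −0.23 and −0.09 on glucosamine replicates 1 to 3, against 0.25, 0.32 and 0.06 on sucrose replicates 1 to 3. For the small subunit it was −0.29, −0.21 and −0.03 on the glucosamine arrays, against 0.22, 0.30 and 0.05 on the sucrose arrays. In both subunits glucosamine replicate 3 was the highest glucosamine array and sucrose replicate 3 the lowest sucrose array, so the groups came closest there and still did not overlap. The difference of the group means was −0.43 for the large and −0.37 for the small subunit. The large subunit level minus the small subunit level was −0.043 ± 0.021 in the glucosamine arrays and 0.016 ± 0.006 in the sucrose arrays (SD, n = 3 each). No p is given for these scores; with 3 arrays per diet, the smallest two-sided p that exact permutation allows is 0.1.

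**Figure D2:**
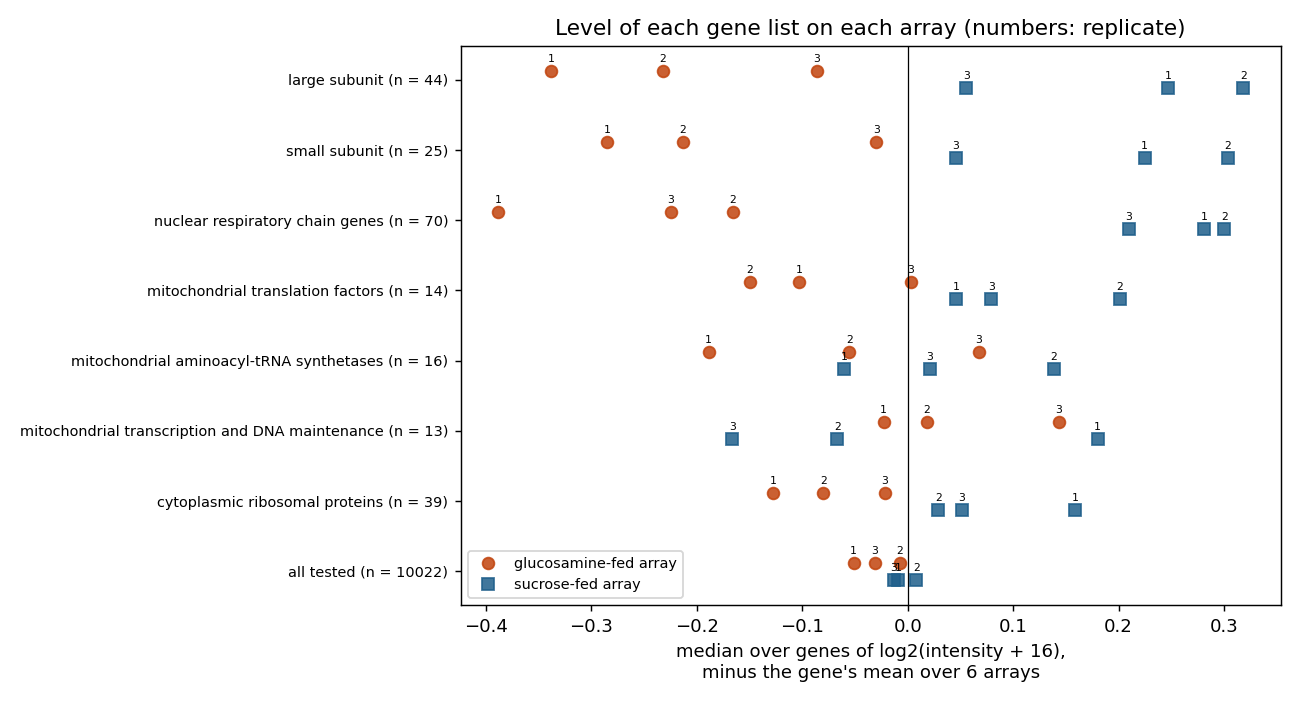
Each point is the level of a gene list on 1 array, the median over its genes of log2(intensity + 16) minus the gene's mean over 6 arrays, with the replicate number above it. Circles are glucosamine-fed and squares sucrose-fed arrays. For both subunits and for the nuclear respiratory chain genes all circles lie left of all squares, and the same holds at smaller distances for translation factors and cytoplasmic ribosomal proteins, while all tested genes lie near 0.

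The same arrays recurred gene by gene. Among large subunit genes the lowest glucosamine value came from replicate 1 in 27, from replicate 2 in 14 and from replicate 3 in 3, and the highest came from replicate 3 in 26. The lowest sucrose value came from replicate 3 in 35 large subunit genes. In the small subunit glucosamine replicate 3 gave the highest glucosamine value in 20 of 25 genes, and sucrose replicate 3 the lowest sucrose value in 16. Control probe sets at both ends of a transcript reflect RNA integrity and labelling. For eIF-4a, 18S rRNA and GAPDH their 5′ minus 3′ log2 signal was lower in the glucosamine arrays without overlap, with differences of −0.74, −0.12 and −0.15. Those of actin (−0.27), Act5C (0.60) and another GAPDH set (−0.11) overlapped. The part of RNA quality, and that of the nephrocyte, ovary, gut and tracheal markers given above, in the members' differences was not tested.

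**Figure D3:**
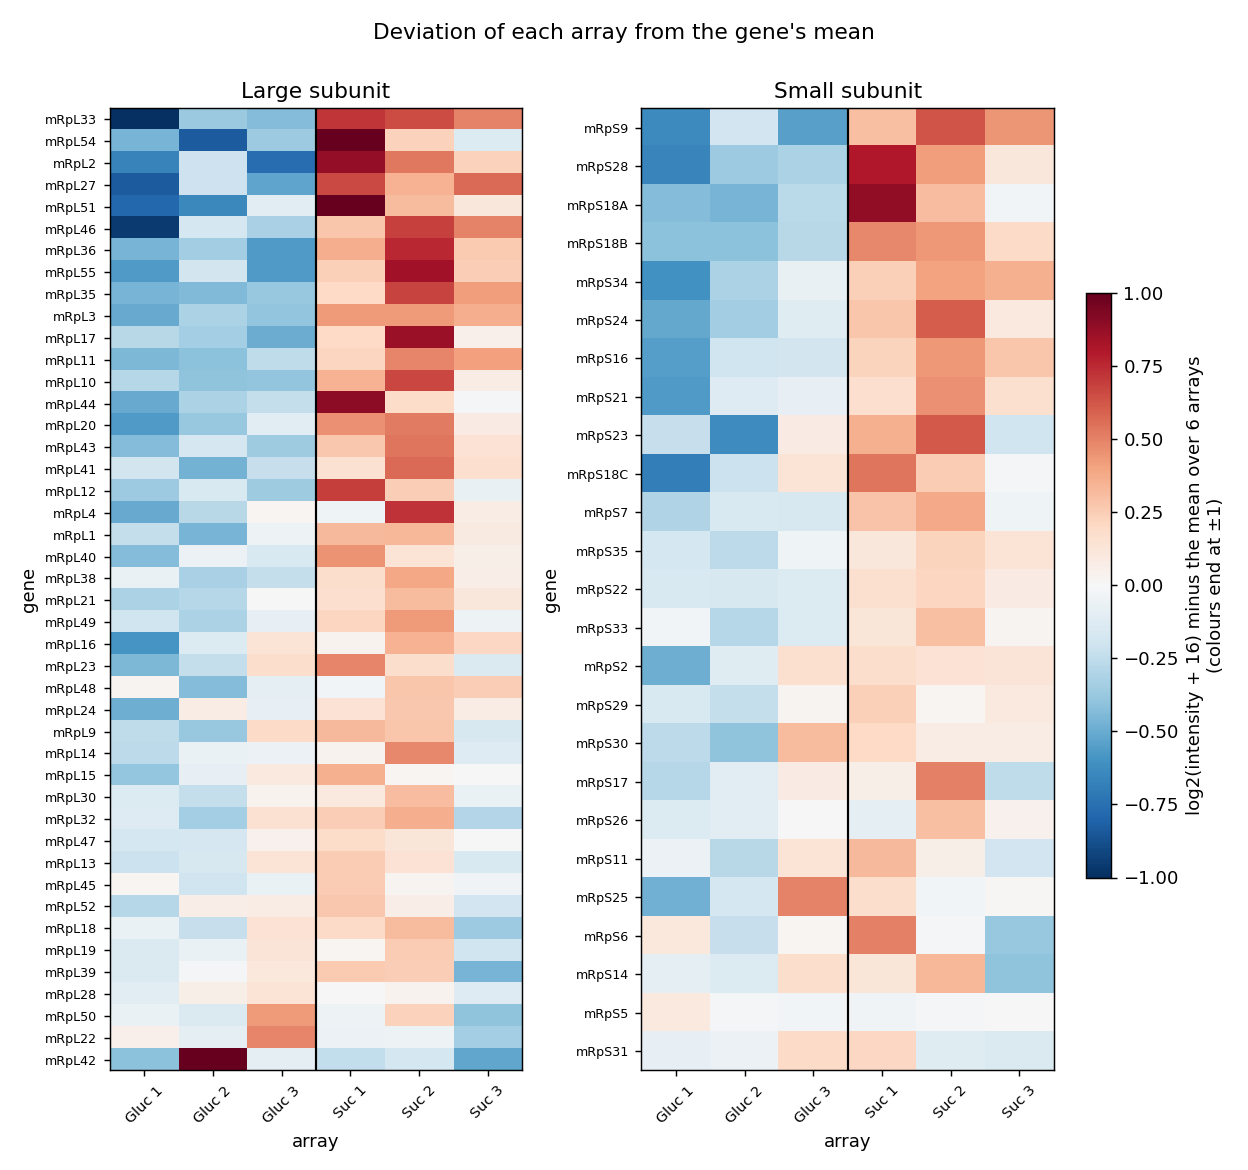
Each row is a gene, each column an array (Gluc, glucosamine; Suc, sucrose), and the colour is log2(intensity + 16) minus the gene's mean over 6 arrays, ending at ±1. Blue fills most of the glucosamine columns and red most of the sucrose columns, with mRpL42 in glucosamine replicate 2 and mRpL54 in sucrose replicate 1 among the darkest cells.

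The 3 largest falls among the called members, those of mRpL33, mRpL2 and mRpL27, were in the large subunit and in genes with bacterial numbers. Groups by place in the ribosome, used from here on, were made after the values were seen and are a description. mRpL33, a small protein of the large subunit, had intensities of 372, 607 and 581 in the glucosamine arrays, against 1306, 1249 and 1117 in the sucrose arrays. Every glucosamine value lay far under every sucrose value, and the difference was −1.24 ± 0.21 (SE; limma adjusted p = 0.0119). The genes near the peptidyl transferase centre, where the peptide bond forms, were mRpL2, mRpL3, mRpL16 and mRpL27. Of these 4, 3 fell, where 8.64% of everything tested and 17 of all 69 members were called lower. mRpL2, a conserved protein beside the centre, had 190.4, 269 and 178 in the glucosamine arrays, against 587, 456 and 368 in the sucrose arrays. No glucosamine array reached the lowest sucrose array, which was replicate 3, and the difference was −1.09 ± 0.23 (SE; limma adjusted p = 0.0222). mRpL27, whose bacterial counterpart reaches into the centre with its tail, had 230.0, 365 and 289 in the glucosamine arrays, against 677, 542 and 634 in the sucrose arrays. These groups stood apart as well, with −1.05 ± 0.20 (SE; limma adjusted p = 0.0156). mRpL3, which lies by the entrance of the centre, had 348, 398 and 377 in the glucosamine arrays, against 677, 675 and 649 in the sucrose arrays. Its arrays were the most alike within each diet among these 4 genes, and the difference was −0.81 ± 0.13 (SE; limma adjusted p = 0.00905). mRpL16, which helps to hold transfer RNA in bacteria, had 219.8, 306 and 373 in the glucosamine arrays, against 348, 434 and 394 in the sucrose arrays. Its groups overlapped, and the difference of −0.40 ± 0.21 (SE; limma adjusted p = 0.248) did not pass.

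The stalks of the large subunit recruit translation factors and let spent transfer RNA leave. All 4 stalk genes had groups that did not overlap, and 2 of them fell, where 20.0% of everything tested had glucosamine arrays wholly below and 8.64% was called lower. mRpL11, at the base of the factor-binding stalk, had 309, 317 and 354 in the glucosamine arrays, against 498, 604 and 571 in the sucrose arrays. The highest glucosamine value was well below the lowest sucrose value, and the difference was −0.74 ± 0.14 (SE; limma adjusted p = 0.0162). mRpL10, which carries the copies of L12 on that stalk, had 239, 219 and 219 in the glucosamine arrays, against 378, 476 and 310.1 in the sucrose arrays. The glucosamine arrays were close together and the sucrose arrays spread more widely, with −0.72 ± 0.18 (SE; limma adjusted p = 0.0373). mRpL12, which binds translation factors and in the fly was described as needed for cell growth driven by Cyclin D and Cdk4, had 851, 989 and 856 in the glucosamine arrays, against 1786, 1305 and 1044 in the sucrose arrays. Sucrose replicate 1 was the highest and replicate 3 was near the glucosamine arrays, and the difference of −0.58 ± 0.22 (SE; limma adjusted p = 0.114) did not pass and was −0.375 without sucrose replicate 1. mRpL1, of the other stalk, had 592, 505 and 678 in the glucosamine arrays, against 881, 886 and 749 in the sucrose arrays, and its difference of −0.50 ± 0.16 (SE; limma adjusted p = 0.0791) did not pass either.

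None of the 7 genes placed at the exit tunnel and its rim passed, where 8.64% of everything tested was called lower. Differences between these small groups by place were not tested. Their median was −0.33, with a range from −0.74 to 0.30. mRpL4, which lines the tunnel, had 274, 323 and 400.0 in the glucosamine arrays, against 384, 661 and 417 in the sucrose arrays. Glucosamine replicate 3 exceeded sucrose replicate 1, and the difference was −0.51 ± 0.25 (SE; limma adjusted p = 0.206), or −0.27 without sucrose replicate 2. mRpL17, at the rim of the exit, had 332, 319 and 283 in the glucosamine arrays, against 469, 752 and 422 in the sucrose arrays. Its groups did not overlap, but sucrose replicate 2 stood above the other arrays of its diet, and the difference of −0.74 ± 0.23 (SE; limma adjusted p = 0.0703) did not pass. mRpL22, another tunnel protein, had a positive difference, with 1634, 1475 and 2216 in the glucosamine arrays, against 1507, 1517 and 1238 in the sucrose arrays. Glucosamine replicate 3 was the highest, the groups overlapped, and the difference was 0.30 ± 0.19 (SE; limma adjusted p = 0.325), or 0.13 without glucosamine replicate 3. mRpL23, mRpL24, mRpL32 and mRpL45 had differences of −0.35, −0.33, −0.21 and −0.16, with adjusted p of 0.347, 0.259, 0.557 and 0.489 in the same limma fit.

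Further genes that fell in the large subunit were of both kinds. mRpL35 and mRpL36 encode small proteins with bacterial counterparts. mRpL35 had 197, 200.0 and 209.5 in the glucosamine arrays, against 321, 454 and 377 in the sucrose arrays. The 3 glucosamine values were nearly equal and all far below the sucrose values, with −0.86 ± 0.16 (SE; limma adjusted p = 0.0152). mRpL36 had 93.2, 102 and 85.7 in the glucosamine arrays, against 177, 238 and 165 in the sucrose arrays. Its groups did not overlap, and the difference was −0.92 ± 0.17 (SE; limma adjusted p = 0.0154). mRpL46, a protein of the central protuberance that was added in mitochondria, had 210.3, 374 and 337 in the glucosamine arrays, against 519, 691 and 604 in the sucrose arrays. Glucosamine replicate 1 was the lowest, the groups stood apart, and the difference was −0.97 ± 0.24 (SE; limma adjusted p = 0.0352). The other 4 genes placed at the protuberance, mRpL18, mRpL38, mRpL40 and mRpL48, had differences of −0.10, −0.42, −0.43 and −0.33 and did not pass. mRpL55, whose loss in the fly was described as lethal in larvae, had 123, 165 and 123 in the glucosamine arrays, against 227, 354 and 229 in the sucrose arrays. Sucrose replicate 2 was the highest, the groups did not overlap, and the difference was −0.88 ± 0.22 (SE; limma adjusted p = 0.0363). mRpL20 and mRpL43 also fell, by 0.70 and 0.64 on the log2 scale (limma adjusted p = 0.0453 and 0.0387), and were picked out after their values were seen. mRpL20 had 338, 387 and 469 in the glucosamine arrays, against 701, 734 and 539 in the sucrose arrays, and mRpL43 had 438, 530.1 and 463 in the glucosamine arrays, against 722, 874 and 662 in the sucrose arrays, without overlap in either gene.

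**Figure D4:**
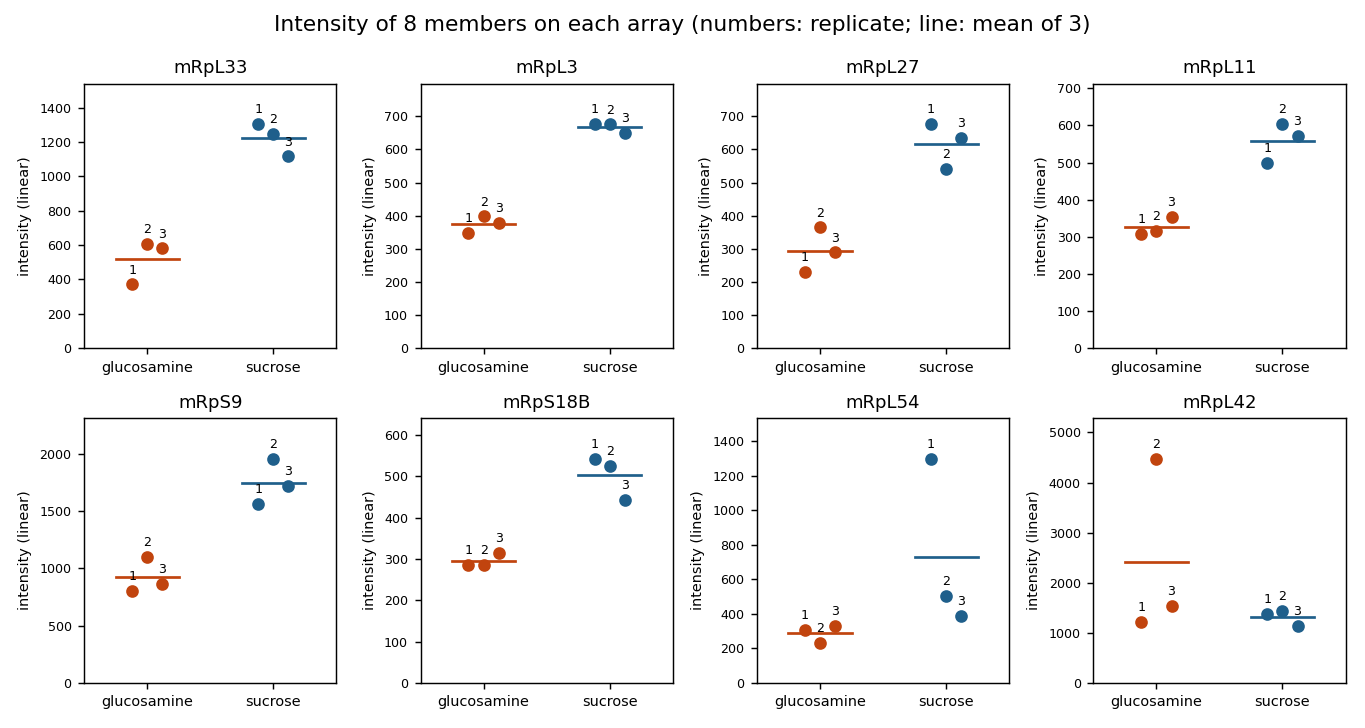
Linear intensity of 8 members on each array, glucosamine left of sucrose, with the replicate number at each point and a line at the mean of 3. mRpL33, mRpL3, mRpL27, mRpL11, mRpS9 and mRpS18B passed the test, with separate groups, while in mRpL54 and mRpL42 a single array stands far from the rest.

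Several large differences did not pass and had single arrays far from the others of their diet. mRpL54, another protein added in mitochondria, had 306, 234 and 328 in the glucosamine arrays, against 1300.0, 504 and 388 in the sucrose arrays. Sucrose replicate 1 was 2.58 times the next sucrose array, and the difference of −1.11 ± 0.43 (SE; limma adjusted p = 0.126) was −0.60 without that array. mRpL51 had 319, 353 and 519 in the glucosamine arrays, against 1226, 704 and 609.6 in the sucrose arrays, with a difference of −1.03 ± 0.31 (SE; limma adjusted p = 0.0615) that was −0.73 without sucrose replicate 1. mRpL44, whose mammalian counterpart has a fold of the RNase III family, had 762, 869 and 918 in the glucosamine arrays, against 2034, 1232 and 1069 in the sucrose arrays, with a difference of −0.70 ± 0.25 (SE; limma adjusted p = 0.103) that was −0.43 without that array. In all 3 genes the groups nevertheless did not overlap. Sucrose replicate 1 was also the array with the highest ovary marker sum, and the part of ovary RNA in these genes was not tested. At the other end, mRpL42 had 1224, 4476 and 1530.0 in the glucosamine arrays, against 1370.0, 1445 and 1132 in the sucrose arrays. Glucosamine replicate 2 was 2.93 times the next glucosamine array, the groups overlapped, and the difference of 0.63 ± 0.46 (SE; limma adjusted p = 0.389) was 0.06 without it. mRpL28 had 885, 991 and 1052 in the glucosamine arrays, against 956, 974 and 871 in the sucrose arrays, with a difference of 0.06 ± 0.14 (SE; limma adjusted p = 0.799) that was 0.01 without glucosamine replicate 3. mRpL50 had 728, 689 and 1029 in the glucosamine arrays, against 733, 898 and 573 in the sucrose arrays, with 0.15 ± 0.23 (SE; limma adjusted p = 0.703), and its sign turned to −0.03 without glucosamine replicate 3 and −0.02 without sucrose replicate 3. Both genes had overlapping groups.

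In the small subunit the fall of largest size was that of mRpS9, whose bacterial counterpart touches the transfer RNA that holds the growing chain. mRpS9 had 806, 1101 and 862 in the glucosamine arrays, against 1562, 1959 and 1721 in the sucrose arrays. All glucosamine values lay below all sucrose values, and the difference was −0.92 ± 0.17 (SE; limma adjusted p = 0.016). mRpS28 had 673, 832 and 858 in the glucosamine arrays, against 1882, 1441 and 1164 in the sucrose arrays. Its sucrose values were spread, with replicate 1 the highest, and did not overlap with the glucosamine values, and the difference was −0.89 ± 0.21 (SE; limma adjusted p = 0.0313). mRpS34, a mitochondrial addition, had 305, 375 and 448 in the glucosamine arrays, against 560.3, 628 and 611 in the sucrose arrays. Its groups stood apart, with −0.66 ± 0.17 (SE; limma adjusted p = 0.0407). mRpS16, of the body of the subunit and in bacteria a protein of its assembly, had 528, 679.7 and 685 in the glucosamine arrays, against 915, 1059 and 948 in the sucrose arrays. The lowest sucrose array was above every glucosamine array, and the difference was −0.62 ± 0.16 (SE; limma adjusted p = 0.0396).

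The S18 family has 3 genes in animals. mRpS18B had 286, 285 and 315 in the glucosamine arrays, against 543, 524 and 442 in the sucrose arrays. The glucosamine arrays were nearly equal and below all sucrose arrays, and the difference was −0.73 ± 0.14 (SE; limma adjusted p = 0.0168). mRpS18A had 587, 575 and 659.6 in the glucosamine arrays, against 1492, 990.2 and 784 in the sucrose arrays. Sucrose replicate 1 was 1.51 times the next sucrose array, and the difference of −0.78 ± 0.24 (SE; limma adjusted p = 0.0702) did not pass, although it did without sucrose replicate 3 (adjusted p = 0.0431). mRpS18C had 49.5, 75.1 and 100.1 in the glucosamine arrays, against 137, 109.7 and 88.6 in the sucrose arrays. Glucosamine replicate 3 exceeded sucrose replicate 3, and the difference was −0.51 ± 0.25 (SE; limma adjusted p = 0.209), or −0.29 without glucosamine replicate 1. The median of the 3 genes was −0.73, and 1 of them passed, where 8.64% of everything tested was called lower.

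Of the small subunit genes, 20 did not pass, and 18 of these had a negative difference. mRpS7, of the head, had 2677, 2968 and 2956 in the glucosamine arrays, against 4020.0, 4295 and 3206 in the sucrose arrays. The groups did not overlap, and the difference was −0.41 ± 0.16 (SE; limma adjusted p = 0.125). mRpS29, which binds guanine nucleotides and is known in mammals as the death-associated protein DAP3, had 555, 523 and 633 in the glucosamine arrays, against 735, 629.7 and 664 in the sucrose arrays. Glucosamine replicate 3 lay just above sucrose replicate 2, and the difference was −0.24 ± 0.14 (SE; limma adjusted p = 0.289). mRpS5, by the entry path of the message, had 2297, 2113 and 2103 in the glucosamine arrays, against 2096, 2129 and 2150.0 in the sucrose arrays. The groups overlapped, with 0.03 ± 0.12 (SE; limma adjusted p = 0.898). mRpS31 had 481, 489 and 584 in the glucosamine arrays, against 589, 467 and 459.7 in the sucrose arrays, also with overlap and with 0.04 ± 0.16 (SE; limma adjusted p = 0.898). The sign turned to −0.01 without glucosamine replicate 1 for mRpS5, and for mRpS31 to −0.05 without glucosamine replicate 3 and to −0.01 or −0.02 when sucrose replicate 2 or 3 was left out. mRpS30 had 317, 286 and 481 in the glucosamine arrays, against 442, 405 and 405 in the sucrose arrays. Glucosamine replicate 3 was above every sucrose array while the other glucosamine arrays were below them, and the difference was −0.23 ± 0.21 (SE; limma adjusted p = 0.484). It was −0.09 without glucosamine replicate 2 and −0.45 without glucosamine replicate 3. mRpS24, mRpS21 and mRpS22 had groups without overlap and differences of −0.65, −0.52 and −0.30, with limma adjusted p of 0.0549, 0.0998 and 0.141.

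Of the 69 genes, mRpL47 and mRpS11 had a second probe set. In a fit on all probe sets, the second set of mRpL47 differed by −0.20 and the one in use by −0.20 (limma adjusted p = 0.443 and 0.347). The second set of mRpS11 differed by −0.34 and the one in use by −0.13 (limma adjusted p = 0.381 and 0.671). The signs and calls were thus the same within each gene. A probe set shared by mRpL53 and CG33155 and another shared by mRpS10 and CG34316 were not counted as members, because their signal cannot be divided, and were not tested. The first had intensities of 866.3, 990.4 and 978.4 in the glucosamine arrays, against 1139, 1199 and 1297 in the sucrose arrays, without overlap. The second had 86.7, 107.4 and 120.4 in the glucosamine arrays, against 167, 225.8 and 111.7 in the sucrose arrays, with overlap.

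How firmly single genes were called depended on the arrays. With each array left out in turn, mRpL3 and mRpL33 passed in all 6 fits, and the other 15 called genes did not. mRpL35 was lost without glucosamine replicate 1 only, mRpL11 without glucosamine replicate 1 or sucrose replicate 2, mRpL27 without glucosamine replicate 1 or sucrose replicate 1, and mRpL36 without glucosamine replicate 1 or 3. mRpS9 was lost without glucosamine replicate 1 or 3 or sucrose replicate 2, and mRpS18B without glucosamine replicate 1 or sucrose replicate 1 or 2. mRpL2 passed only without glucosamine replicate 2 or sucrose replicate 3. mRpL46 and mRpL55 passed only without glucosamine replicate 2, mRpL10, mRpL20 and mRpS28 only without sucrose replicate 3, and mRpS34 only without glucosamine replicate 3. mRpL43 and mRpS16 passed in none of the 6. The count of 12 large subunit genes was 2 without glucosamine replicate 1, 9 without glucosamine replicate 2 or sucrose replicate 3 and 5 without each of the other 3 arrays. The count of 5 small subunit genes was 0 without glucosamine replicate 1 or sucrose replicate 2, with 7 at an unadjusted limma p under 0.05 in both fits. It was 2 without glucosamine replicate 2 or 3, 1 without sucrose replicate 1 and 4 without sucrose replicate 3. Among all 10022 tested, the 866 lower calls became 288, 635 and 466 without glucosamine replicates 1, 2 and 3. They became 530, 449 and 571 without sucrose replicates 1, 2 and 3. Over these 6 fits the median difference ran from −0.51 to −0.34 in the large and from −0.43 to −0.29 in the small subunit. When both glucosamine replicate 3 and sucrose replicate 1 were dropped, which was tried only once the values were known, 0 genes passed in either subunit. In that setting 19 large and 8 small subunit genes had an unadjusted limma p under 0.05, and the medians were −0.46 and −0.40.

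Genes that share the members' task under another name were also on the array. tko encodes the counterpart of S12 and is known for mutants that are paralysed by a mechanical shock. Its intensities were 277, 371 and 403 in the glucosamine arrays, against 842, 672 and 676 in the sucrose arrays. The groups stood far apart, with −1.04 ± 0.19 (SE; limma adjusted p = 0.0139), and it passed in all 6 fits without 1 array. bonsai, the counterpart of S15, had 769, 856 and 1082 in the glucosamine arrays, against 1058, 1482 and 945 in the sucrose arrays, with overlap and −0.35 ± 0.22 (SE; limma adjusted p = 0.318), and its difference was −0.16 without sucrose replicate 2.

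Of 14 tested genes in a list of mitochondrial translation factors and of related proteins, 2 fell and 0 rose, with a median of −0.14, where 8.64% of everything tested was called lower. The count was 2 without sucrose replicate 3, 1 without any other single array, and 0 when glucosamine replicate 3 and sucrose replicate 1 were dropped together, with 3 lower at an unadjusted limma p under 0.05. The median ran from −0.24 to −0.11 without 1 array and was −0.32 with both dropped. With all arrays, at an unadjusted limma p under 0.05, 4 were lower and 1 was higher. Both that fell encode forms of elongation factor Tu, which brings aminoacyl transfer RNA to the ribosome. mEFTu2 had 354, 308 and 302 in the glucosamine arrays, against 519, 639 and 559 in the sucrose arrays, with −0.80 ± 0.15 (SE; limma adjusted p = 0.0143), and passed in all 6 fits without 1 array. mEFTu1 had 394, 345 and 348 in the glucosamine arrays, against 609.7, 586 and 492 in the sucrose arrays, with −0.61 ± 0.15 (SE; limma adjusted p = 0.033), and passed only without sucrose replicate 3 when single arrays were left out. Neither gene had overlapping groups. mEFTs, the exchange factor of Tu, differed by −0.64 and mTerf3 by 0.54 (limma adjusted p = 0.0546 and 0.123).

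Aminoacyl-tRNA synthetases charge transfer RNA. Of 16 tested genes in a list of mitochondrial synthetases and of the synthetase-like Slimp, a paralogue of seryl-tRNA synthetase that does not charge transfer RNA, 0 passed in either direction by limma, and 5 had an unadjusted p under 0.05. Their median was −0.21, and it was −0.10 without glucosamine replicate 1, and −0.12 and −0.11 when sucrose replicates 2 and 3 were left out in turn. MetRS-m and TyrRS-m differed by −0.57 and −0.47, and Slimp and PheRS-m by 0.71 and 0.64 (limma adjusted p = 0.0632, 0.139, 0.0731 and 0.0758).

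Genes of mitochondrial transcription and DNA maintenance differed in both directions, with 3 of 13 lower, 3 higher and a median of −0.01. Of everything tested, 8.64% was called lower and 9.92% higher. RNaseZ, which trims the 3′ ends of transfer RNA, had 190.4, 151 and 257 in the glucosamine arrays, against 58.8, 63.6 and 38.8 in the sucrose arrays. Every glucosamine value was above every sucrose value, with 1.62 ± 0.24 (SE; limma adjusted p = 0.00727). PolrMT, the mitochondrial RNA polymerase, had 311, 212 and 259 in the glucosamine arrays, against 135, 101 and 93.5 in the sucrose arrays. It was likewise higher on all glucosamine arrays, with 1.13 ± 0.20 (SE; limma adjusted p = 0.0127). mtDNA-helicase, which unwinds mitochondrial DNA, had 132, 147 and 193 in the glucosamine arrays, against 72.1, 81.1 and 57.0 in the sucrose arrays. It also had separate groups, with 1.00 ± 0.19 (SE; limma adjusted p = 0.0156). These 3 passed in all 6 fits without 1 array. scu, which encodes a dehydrogenase that is also a subunit of the enzyme that trims the 5′ ends of mitochondrial transfer RNA, had 1224, 1380.0 and 1199 in the glucosamine arrays, against 1947, 2675 and 2146 in the sucrose arrays. It fell with −0.81 ± 0.17 (SE; limma adjusted p = 0.0195), and passed in 3 of the 6 fits, not without glucosamine replicate 1 or 3 or sucrose replicate 2. TFAM, which packs mitochondrial DNA, and mtTFB2, a partner of the polymerase, fell by 0.69 and 0.54 on the log2 scale (limma adjusted p = 0.0389 and 0.0343), and were picked out after their values were seen. Of the 3 lower genes, 0 passed when glucosamine replicate 1 or 3 or sucrose replicate 2 was left out, and 2 passed when glucosamine replicate 2 was. With sucrose replicate 1 or 3 left out 1 passed, while 3 had an unadjusted limma p under 0.05 in each of these fits. With glucosamine replicate 3 and sucrose replicate 1 dropped together, 0 of the 13 passed in either direction, and 3 were lower and 4 higher at an unadjusted limma p under 0.05. Transcripts of the mitochondrial genome itself were not analysed here.

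**Figure D5:**
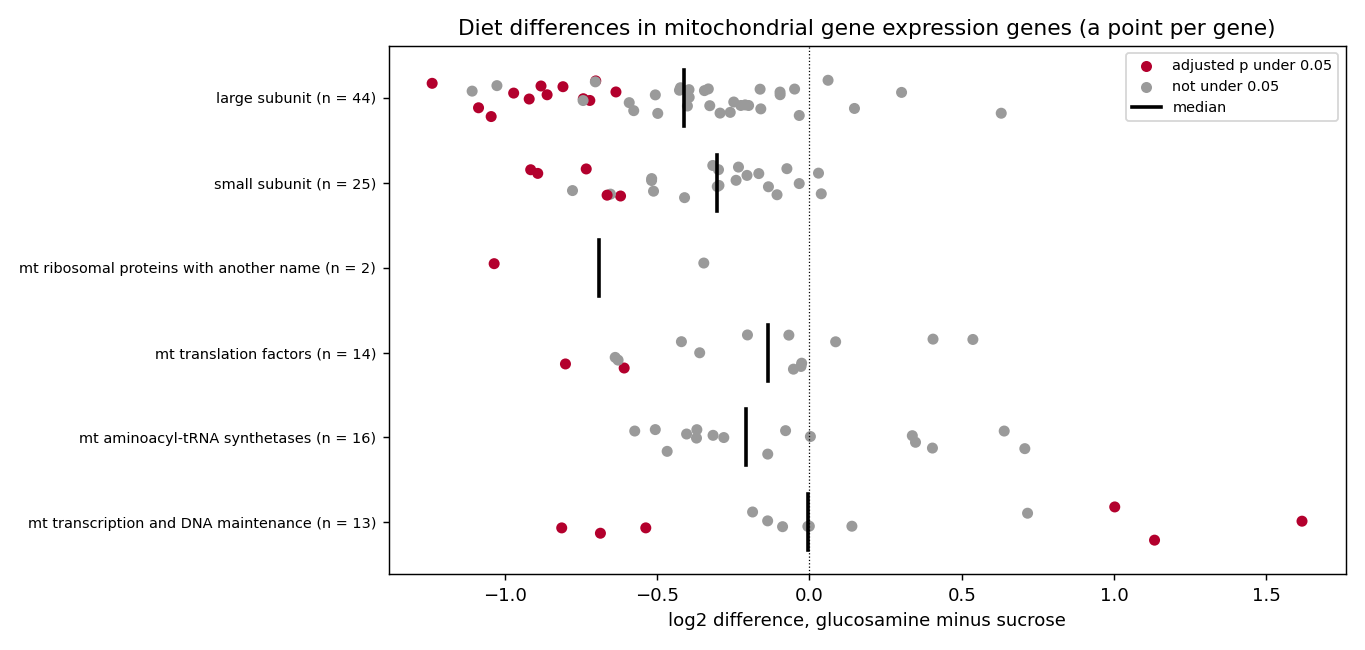
Each point is the log2 difference, glucosamine minus sucrose, of 1 gene of the lists named at the left (mt, mitochondrial), with a bar at the median of each list. Red points passed an adjusted p of 0.05. Medians run from −0.69 for the 2 ribosomal proteins with another name to −0.01 for transcription and DNA maintenance, where 3 red points lie right of 0.

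Beside these, 30 of 70 tested nuclear genes of the respiratory chain fell and 0 rose, with a median of −0.53, and in cytoplasmic ribosomal protein genes 2 of 39 fell and 0 rose, with a median of −0.16. The cytoplasmic share is not above the 8.64% of everything tested that was called lower. However, in 21 of the 39 the glucosamine arrays lay wholly below the sucrose arrays and in 1 wholly above, beside 36 and 0 of the 69 members. The shares over all tested were 20.0% and 18.9%. The difference was negative for 34 of the 39, against 53.6% of everything tested. That count depended on the normalization. It was 31 with quantile normalization and 21 with cyclic loess, with medians of −0.09 and −0.04. With glucosamine replicates 1, 2 and 3 left out in turn, the respiratory chain count was 9, 25 and 17. It was 14, 12 and 18 without sucrose replicates 1, 2 and 3, and 0 when glucosamine replicate 3 and sucrose replicate 1 were dropped together, with 33 at an unadjusted limma p under 0.05. Lower calls over all tested in the fits without 1 array are given above. The cytoplasmic count was 1 without sucrose replicate 2 and 0 without any other single array, with 2 to 5 at an unadjusted limma p under 0.05. Mitochondrial ribosomal proteins lay between them by share called and by median, and the differences between lists were not tested. The lists differed in level. The cytoplasmic list held only the 41 genes with a single symbol, taken by the start of that symbol. RpL24-like, RpL7-like and RpLP0-like were thus included by name alone. RpS5b had 225.2, 252.8 and 248.2 in the glucosamine arrays, against 7603, 797.5 and 227.0 in the sucrose arrays. Its groups overlapped, sucrose replicate 1 was the array with the highest ovary marker sum, and the part of ovary RNA was not tested. Tested genes of the list reached from RpL37-2, with group means of 9.62 and 13.0, to RpL15, with 30393 and 30677 (glucosamine, then sucrose). The members' means ran from 93.3 to 3354, and the part of level in this order was not tested. On the arrays, the respiratory chain genes had levels of −0.39, −0.17 and −0.22 after glucosamine, against 0.28, 0.30 and 0.21 after sucrose. There, sucrose replicate 3 lay near the other sucrose arrays. Among the members, the 34 with a mean intensity under the members' median of 566.8 had 12 called lower and a median difference of −0.51. The 35 at or over it had 5 called lower and a median of −0.26.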

How the data were processed

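Per the labels' protocols, RNA was extracted with Trizol, cleaned on RNeasy MinElute columns and labelled with biotin by Affymetrix's standard method. For each array the authors deposited the intensity of every probe set, on a linear scale. Its summarisation and normalization are not given in the sources used here. Since the upper quartiles of the arrays were nearly equal, values were used as deposited.

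Of 18952 probe sets, 183 controls and 402 with several symbols were left out. Members were the 69 genes found in 71 probe sets by symbol, and all 69 symbols matched the RefSeq table, which served for names only. Genes took their brightest probe set, and the 40% of 16702 genes and unnamed probe sets with the lowest mean were left out. A two-sided test on log2(intensity + 16) was made in R 4.3.3 with limma 3.58.1 (lmFit, eBayes) and adjusted by Benjamini-Hochberg with a threshold of 0.05, after the code was tested on simulated data. Intensity errors are SD and log2 difference errors are SE.

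Members named are the 10 largest called per subunit and direction, the 4 smallest p per subunit and direction, both ends of the range and 12 genes named whatever their result, plus up to 4 per other list. All other genes named were picked after their values were seen. Members and lists were chosen with earlier results of these data known. The alternatives were 3 normalizations, 2 filters, 1 pseudocount, 2 probe set rules, a variance trend with a robust prior, array weights, a replicate block, each array left out, and a subunit reassignment. Same-numbered replicates had correlations of deviations of 0.022, −0.12 and −0.051, so the numbers were not taken as pairs. With 3 arrays per diet these correlations cannot exclude pairing. Sequences and promoter motifs were not analysed here. Python 3.11.15, pandas 2.3.3 and matplotlib 3.10.9 drew the figures.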

Additional observations from a re-analysis of the deposited data

How the results depend on the processing

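In all 19 alternatives run on the counts, 0 members of either subunit were called higher, and the medians of both subunits stayed negative. The large subunit count of 12 was 6 with no filter, 7 with the replicate block and 2 to 9 without 1 array. It was 0 when both glucosamine replicate 3 and sucrose replicate 1 were dropped (19 at an unadjusted limma p under 0.05), a setting chosen after seeing the data. The small subunit count of 5 was 3 with no filter, 3 with log2(intensity + 1), 1 with the replicate block and 0 to 4 without 1 array. It was 0 with both dropped (8 at an unadjusted limma p under 0.05). Other alternatives gave 10 to 14 and 5 to 6. Over all genes tested, the 866 lower calls were 406 with the block, 288 without glucosamine replicate 1 and 120 with both dropped. Dropping arrays also leaves fewer residual degrees of freedom. Whether same-numbered replicates were paired is not known here. The block also leaves fewer residual degrees of freedom, and the medians under it were the same, at −0.41 and −0.30.

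Of 63 members with a negative difference, 56 were negative in every fit without 1 array and 61 with both dropped. The sign of mRpL18, mRpL19, mRpL39, mRpL52, mRpS6, mRpS14 and mRpS25 turned in at least 1 such fit. Among the positive differences it turned for 3 genes. The mRpL50 difference (0.15) ran from −0.0287 to 0.301 without 1 array, negative without glucosamine replicate 3 or sucrose replicate 3, and was −0.0186 with both dropped. The mRpS31 difference (0.04) was −0.0174 with quantile normalization and ran from −0.048 to 0.151 without 1 array, negative without glucosamine replicate 3, sucrose replicate 2 or sucrose replicate 3. The mRpS5 difference (0.03) ran from −0.0114 to 0.0518, negative without glucosamine replicate 1. The cause was not tested. The 2 lower calls among translation factors were 0 with the replicate block, and the median of that list, −0.14 over 14 genes, was −0.36 over the 11 left by the filter on 60%. The limits are 3 arrays a diet, no arm on unsupplemented food, unknown normalization, and no test of nephrocyte content or RNA quality.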
